A study of Mus musculus with 2 samples.

Results

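The cells described here are the alpha-beta T and other lymphoid cells of mouse dorsal skin, measured as single-cell RNA in 1 library from Chrna5-/- mice and 1 library from wild-type (WT) mice. They were chosen by a rule on their own counts of UMIs, the molecule tags that let each captured RNA be counted once. A barcode had to hold at least 500 UMIs and 300 genes, at most 20% mitochondrial UMIs, under 1% of its UMIs from Krt5 and Krt14, at least 1 UMI of Ptprc and at least 2 UMIs over Cd3e, Cd3d, Cd3g, Trac, Il7r and Icos. Barcodes with any UMI of Trdv4, Tcrg-V5 or Cd163l1, with 2 or more of Il17a, or with 2% or more of their UMIs from Cd74 were left out. The rule found 158 cells in the Chrna5-/- library and 218 in the WT library, 376 of 19468 barcodes that passed the quality limits. Chrna5 encodes an alpha subunit of nicotinic acetylcholine receptors. The mice were females on a C57BL/6 background, 6 to 8 weeks old, the mutants backcrossed for more than 10 generations. The labels name the substrain differently in different fields. Skin of both genotypes had been treated with vaseline (6 days of application) and was taken on day 7. It was digested with collagenase and sorted for live cells. The labels give neither the part of Chrna5 that is missing nor the number of mice in a library. One protocol text speaks of skin after imiquimod, whereas the sample labels name vaseline.

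Alpha-beta T cells recognise peptides on MHC molecules through a receptor made of an alpha and a beta chain, and signal through the CD3 chains. In skin they include resident memory cells, helper cells that make cytokines such as interferon gamma or interleukin 5, and regulatory T cells, which depend on the transcription factor Foxp3 and restrain inflammation. Innate lymphoid cells lack these receptors but make similar cytokines, and the group 2 innate lymphoid cells of skin carry Gata3 and make interleukins 5 and 13. Mouse epidermis also holds many gamma-delta T cells, the dendritic epidermal T cells, whose receptor uses the chains encoded by Trdv4 and Tcrg-V5.

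Each genotype is 1 library, so no comparison across animals could be made. The groups are compared by the ratio of their CPM (a gene's UMIs per 1000000 UMIs summed over the member cells), Chrna5-/- over WT. The 95% intervals cover counting error only, and for genes whose UMIs sit in a few cells they are too narrow. Genes with 20 or more UMIs in the 2 libraries together are called measured. They are called higher or lower where the ratio passed 1.5 in one direction and its interval did not include 1. Fewer cells of a type and less RNA per cell cannot be told apart in a summed level, so the share of cells with a UMI is given beside it.

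The member cells were shallow beside the rest of the skin. The Chrna5-/- members held 596875 UMIs in all, with a median of 2697 UMIs, 1125.5 genes and 2.51% mitochondrial UMIs per cell. The WT members held 811007 UMIs, with medians of 2596 UMIs, 1117 genes and 3.35% mitochondrial UMIs. Depth was uneven: 14 Chrna5-/- and 15 WT cells with over 8000 UMIs held 37.4% and 36.5% of the class's UMIs. Cells that were very deep, had at least 1% of UMIs from a keratinocyte list or at least 5 UMIs of Langerhans cell genes numbered 24 and 35. These mixed cells held 41.0% of the UMIs of the Chrna5-/- members and 42.9% of those of the WT members, so results are also given without them. In addition, 6 Chrna5-/- and 11 WT members had a doublet score over 0.25. The libraries shared 34 barcodes, of which 0 were members in Chrna5-/- and 1 in WT.

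The limits of the rule fell within a gradual distribution. Of the members, 16 Chrna5-/- and 27 WT cells held just 2 UMIs over the 6 lymphoid genes, and 20 and 25 cells with 1 such UMI fell outside. A single Ptprc UMI admitted 37 Chrna5-/- and 54 WT members, while 41 and 49 cells that met every other limit had none. Exactly 1 UMI of Trdv4 or Tcrg-V5 kept 69 Chrna5-/- and 77 WT cells out.

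The receptor genes in the members went partly against the name alpha-beta. Trac, the constant region of the alpha chain, had a UMI in 56 of 158 Chrna5-/- members (35.4%) and 85 of 218 WT members (39.0%). Trdc, the constant region of the delta chain, was found in 62 Chrna5-/- members (39.2%) and 69 WT members (31.7%). In keratinocytes, at median depths of 14497 UMIs in Chrna5-/- and 15027 in WT, Trac reached 2.88% and 3.11% of cells and Trdc 1.35% and 1.24%. Most members held Trac or Trdc but not both: 54 Chrna5-/- and 78 WT cells held Trac alone, 60 and 62 held Trdc alone, and 2 and 7 held both. A further 30 Chrna5-/- cells (19.0%) and 43 WT cells (19.7%) held a CD3 gene with no UMI of Trac or Trdc. Without CD3, Trac and Trdc were 12 Chrna5-/- members (7.59%) and 28 WT members (12.8%), which entered through Il7r or Icos.

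**Figure D1:**
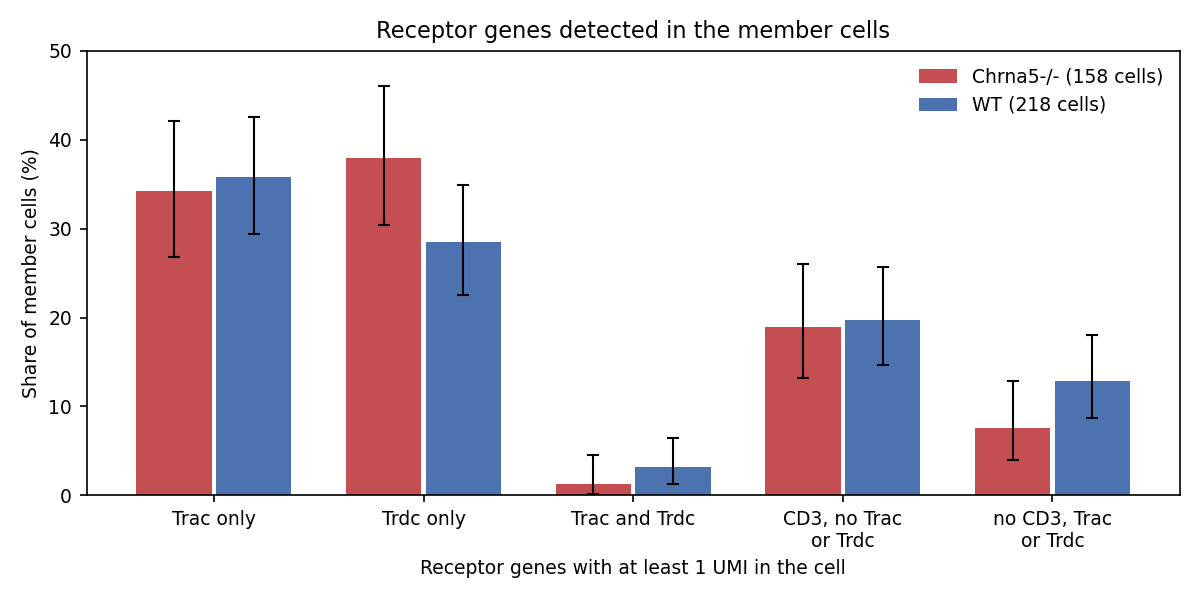
Share of member cells (%) by the receptor genes with at least 1 UMI, for 158 Chrna5-/- cells (left bar of each pair) and 218 WT cells (right bar), with exact 95% intervals for counting error. Cells with Trac alone and with Trdc alone each made up between 28.4% and 38.0% of the members in both libraries.

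The cells with Trdc alone were the shallower ones, at a median of 2137.5 UMIs in Chrna5-/- and 1865 in WT, against 3236.5 and 3021.5 for those with Trac alone. A missed Trdv4 or Tcrg-V5 molecule would place a dendritic epidermal T cell in this set, and how many such cells there are was not tested. Among the measured receptor genes, Trac averaged 240 CPM in Chrna5-/- and 264 CPM in WT, and Trdc 598 and 416 CPM. None of the 7 alpha-beta chain and CD3 genes was higher or lower, with a median log2 ratio of 0.32. Of the gamma-delta chains, 5 were measured and 1 was higher, the variable gene Trgv2, with 18 UMIs in Chrna5-/- and 9 in WT.

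CD3 was the more common in the Chrna5-/- members. At least 1 UMI of Cd3e, Cd3d or Cd3g was present in 146 of 158 Chrna5-/- cells (92.4%) and 179 of 218 WT cells (82.1%), a difference of 10.3 percentage points (3.40 to 16.8). After each cell was thinned to 1000 UMIs, which leaves 136 and 193 cells, the shares were 81.6% and 69.9%, against 0.390% and 0.271% in keratinocytes. The rule itself selects on these genes, so the shares describe which cells entered it. Cells without CD3 but with natural killer genes (Ncr1, Klrb1c, Eomes or Prf1) numbered 1 in each library.

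The class made up a smaller share of the Chrna5-/- library. It held 158 of 9308 filtered barcodes (1.70%, interval 1.44 to 1.98%) in Chrna5-/- and 218 of 10160 (2.15%, 1.87 to 2.45%) in WT, a ratio of 0.791 (0.640 to 0.975). With each cell thinned to 1000 UMIs before the rule was applied, the shares were 1.72% and 2.04%. Set against all cells that met the common lymphoid limits, 542 in Chrna5-/- and 612 in WT, the members were 29.2% and 35.6%, a ratio of 0.818 whose interval of 0.663 to 1.01 includes 1. Cells of the same limits that carried a Trdv4 or Tcrg-V5 UMI, and no type 17 gene, numbered 352 in Chrna5-/- and 312 in WT, a ratio of their shares of filtered barcodes of 1.23 (1.05 to 1.44). Digestion and sorting can set such shares, and their part was not tested.

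Across the genes measured in the members, 374 of 6929 were higher in Chrna5-/- (5.4%) and 355 were lower (5.12%). The median log2 ratio over all of them was 0.03. With a TMM scaling factor, which moves every log2 ratio down by 0.07, the split was 281 higher and 421 lower. Without the mixed cells, which leaves 134 Chrna5-/- and 183 WT cells, 240 of 4834 measured genes were higher and 191 lower.

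Of 7 measured genes that mark regulatory T cells, 5 were lower in the Chrna5-/- members and 0 higher. Foxp3 (chromosome X, 7573644 to 7595245, plus strand, mm10), their defining transcription factor, had 0 UMIs in 158 Chrna5-/- cells, which allows a share of cells with a Foxp3 UMI of up to 1.90% (exact interval 0 to 2.31%), and 36 UMIs in 16 of 218 WT cells (7.34%, 4.25 to 11.6%). The highest WT cell held 7 Foxp3 UMIs, the next 5, and the median of the 16 was 1.5. At such low counts cells that express Foxp3 can have no UMI, so the limit is on cells with a UMI and not on cells that express the gene. Every Foxp3 UMI of the class was in WT. With 0 set to a floor of 3 counts over the class, the ratio of CPM came to 0.113, and the interval for 0 counts reached 0.147. After thinning, 0 of 136 Chrna5-/- and 11 of 193 WT members held Foxp3, a difference in share of -5.70 percentage points (-9.92 to -1.99). In keratinocytes with all UMIs Foxp3 was found in 0.0169% of Chrna5-/- and 0.0336% of WT cells. Over the whole filtered libraries, with no rule applied, there were 3 Foxp3 UMIs in 2 Chrna5-/- cells and 44 in 23 WT cells.

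The 16 WT cells with Foxp3 carried several other genes of that cell type. Tnfrsf4, the costimulatory receptor OX40, was in 16 of them, Ikzf2, which encodes Helios, in 15, Ctla4 and Icos in 14 each, Tnfrsf18 in 12 and Il2ra, the high-affinity interleukin 2 receptor chain, in 11. CD3 was in 14 and Trac in 9, while Cd4 and Trdc were in 1 each. Il7r was in 8 and the chemokine receptor Ccr8 in 0. Areg, a growth factor made by tissue regulatory T cells, was in 12, and Il1rl1, the interleukin 33 receptor, in 7.

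Ctla4, an inhibitory receptor that competes for costimulatory ligands, had 26 UMIs in 8 Chrna5-/- cells (5.06%) and 145 UMIs in 35 WT cells (16.1%). This corresponds to 43.6 CPM in Chrna5-/- and 179 CPM in WT, a ratio of 0.244 (0.154 to 0.372). After thinning, the shares were 3.68% and 13.0%, and thinned keratinocytes had Ctla4 in 0 of 5891 Chrna5-/- and 0 of 5908 WT cells. With all UMIs, keratinocytes had it in 0 of 5931 Chrna5-/- and 5 of 5944 WT cells. Of the other measured members of this list, Ikzf2 (ratio 0.544), Tnfrsf4 (0.455) and the costimulatory receptor Tnfrsf9 (0.641) were also lower. Il2ra (0.89) and Tnfrsf18 (0.784) were neither. Ikzf2 was in 26.6% of Chrna5-/- and 34.9% of WT members, and Tnfrsf4 in 20.9% and 24.8%. The differences, -8.28 (-17.3 to 1.24) and -3.88 percentage points (-12.2 to 4.87), have intervals that span both signs. Over the filtered cells that did not meet the common lymphoid limits, the ratios of Ikzf2, Tnfrsf4 and Tnfrsf9 were 1.04, 0.506 and 0.513. The median log2 ratio of the 7 regulatory T genes was -0.88 beside 0.03 for all genes, and 5 of 7 were lower without the mixed cells. Tnfrsf4 and Ikzf2 are not particular to lymphocytes here: after thinning they were in 2.61% and 9.52% of Chrna5-/- keratinocytes and 5.09% and 9.73% of WT keratinocytes.

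Icos, an inducible costimulatory receptor that the rule itself uses, had 129 UMIs in 41 Chrna5-/- cells (25.9%) and 401 UMIs in 96 WT cells (44.0%), a ratio of 0.437 (0.356 to 0.534). The highest Chrna5-/- cell held 12 UMIs and the highest WT cell 20. In the cells with Trac alone, 18 of 54 Chrna5-/- cells and 52 of 78 WT cells held Icos. The same direction was seen outside the class: over the filtered cells that did not meet the common lymphoid limits (called the other skin cells below) Icos had a ratio of 0.434 and Ctla4 0.301. Among 11 measured costimulatory and inhibitory receptors, Icos and Havcr2, an inhibitory receptor of exhausted and tissue T cells, were lower and 0 were higher.

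**Figure D2:**
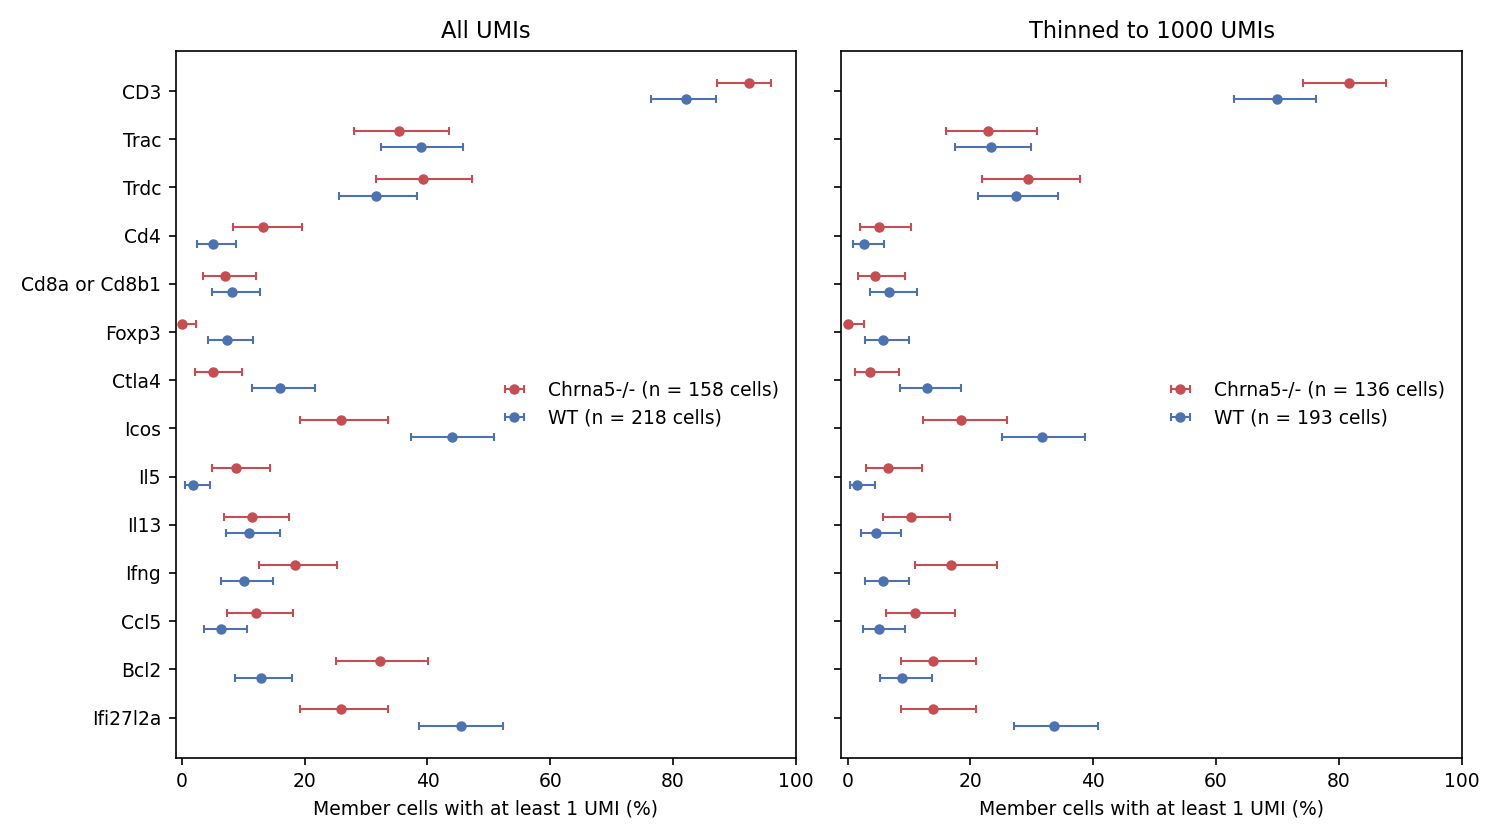
Share of member cells with at least 1 UMI (%) for Chrna5-/- (red, upper point of each pair) and WT (blue, lower point), with exact 95% intervals for counting error. Left, all UMIs (158 and 218 cells), and right, cells thinned to 1000 UMIs (136 and 193 cells). Foxp3, Ctla4, Icos and Ifi27l2a lay lower in Chrna5-/- in both panels, Il5 and Ifng higher, and the difference in Bcl2 narrowed from 19.4 to 5.16 percentage points after thinning.

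Of 10 measured genes of type 2 lymphocytes, 5 were higher in the Chrna5-/- members and 0 lower, and without the mixed cells 3 were higher. Il5 (chromosome 11, 53720794 to 53725106, plus strand), the cytokine that supports eosinophils, had 137 UMIs in 14 Chrna5-/- cells (8.86%) and 20 UMIs in 4 WT cells (1.83%). The levels were 230 CPM in Chrna5-/- and 24.7 CPM in WT, a ratio of 9.31 (5.80 to 15.7). These UMIs were concentrated, with 101 of the 137 in the 4 highest Chrna5-/- cells and 9 of the 20 in the highest WT cell. With the highest cell of each library left out the log2 ratio was 3.61, against 3.22 with all cells. After thinning, Il5 was in 9 Chrna5-/- cells (6.62%) and 3 WT cells (1.55%), and in 0 of 5891 Chrna5-/- and 0 of 5908 WT keratinocytes. With all UMIs, keratinocytes held it in 1 of 5931 Chrna5-/- and 0 of 5944 WT cells.

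The Il5 cells of the Chrna5-/- library carried T cell receptor genes. CD3 was present in 13 of these 14 cells and Trac in 12, together with Gata3 in 13, Rora in 13, Il7r in 11, Il1rl1 in 10, the chemokine receptor Ccr2 in 10, Klrg1 in 8 and Csf2 in 7. Of the 4 WT Il5 cells, 1 held CD3 and 1 held Trac, and all 4 held Gata3 and Rora. The beta chain genes Trbc1 or Trbc2 were in 12 of the 14 Chrna5-/- and 3 of the 4 WT Il5 cells. With all UMIs, Trbc2 was also in 29.1% of Chrna5-/- and 32.7% of WT keratinocytes. Within the cells with Trac alone, Il5 was in 11 of 54 Chrna5-/- cells at 425 CPM and 1 of 78 WT cells at 2.54 CPM. The rule uses CD3, Trac, Il7r and Icos, so their presence in the Il5 cells, and in the Foxp3 and Ifng cells, describes which cells it admitted. The make-up of the WT Il5 cells rests on 4 cells. In the whole filtered libraries Il5 was in 28 Chrna5-/- and 7 WT cells, of which 14 and 3 did not meet the lymphoid limits. Over those other skin cells Il5 had 70 UMIs in Chrna5-/- and 4 in WT, a ratio of 19.4 (7.26 to 73.3).

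Il13, which drives barrier and fibrotic responses, had 74 UMIs in 18 Chrna5-/- cells and 54 UMIs in 24 WT cells, a ratio of 1.86. The shares of cells, 11.4% and 11.0%, were close with all UMIs, and 28 of the Chrna5-/- UMIs were in 1 cell. After thinning the shares were 10.3% and 4.66%, a difference of 5.63 percentage points whose interval of -0.043 to 12.2 includes 0. Without the mixed cells the log2 ratio of Il13 was 0.05, against 0.90 with them. Areg had 833 UMIs in Chrna5-/- and 592 in WT (ratio 1.91) from a smaller share of cells, 38.6% against 43.1%. In Chrna5-/- its UMIs lay largely in cells with Trdc alone, which held 543 of the 833. In WT such cells held the smaller part, 217 of the 592. The highest Chrna5-/- cells, at 108 and 88 UMIs, held Trdc and no Trac, while the next, at 87 UMIs, held neither. In the cells with Trdv4 or Tcrg-V5 Areg had a ratio of 1.46. Klrg1, a receptor of mature effector lymphocytes, had a ratio of 2.54 and Csf2, which encodes GM-CSF, 1.57. Gata3 (1.32) and Il1rl1 (1.30) were neither. So was Cd200r1, the lowest of the list at a log2 ratio of -0.97, with 6 UMIs in Chrna5-/- and 16 in WT. The median log2 ratio of the 10 type 2 genes was 0.59. Members without CD3 but with at least 2 UMIs of type 2 genes numbered 8 in Chrna5-/- (5.06%) and 21 in WT (9.63%). That gate does not separate cells at this depth: thinned, it held 6.62% of Chrna5-/- and 8.81% of WT members, but also 7.28% and 11.9% of keratinocytes, which hold Gata3 and Areg.

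**Figure D3:**
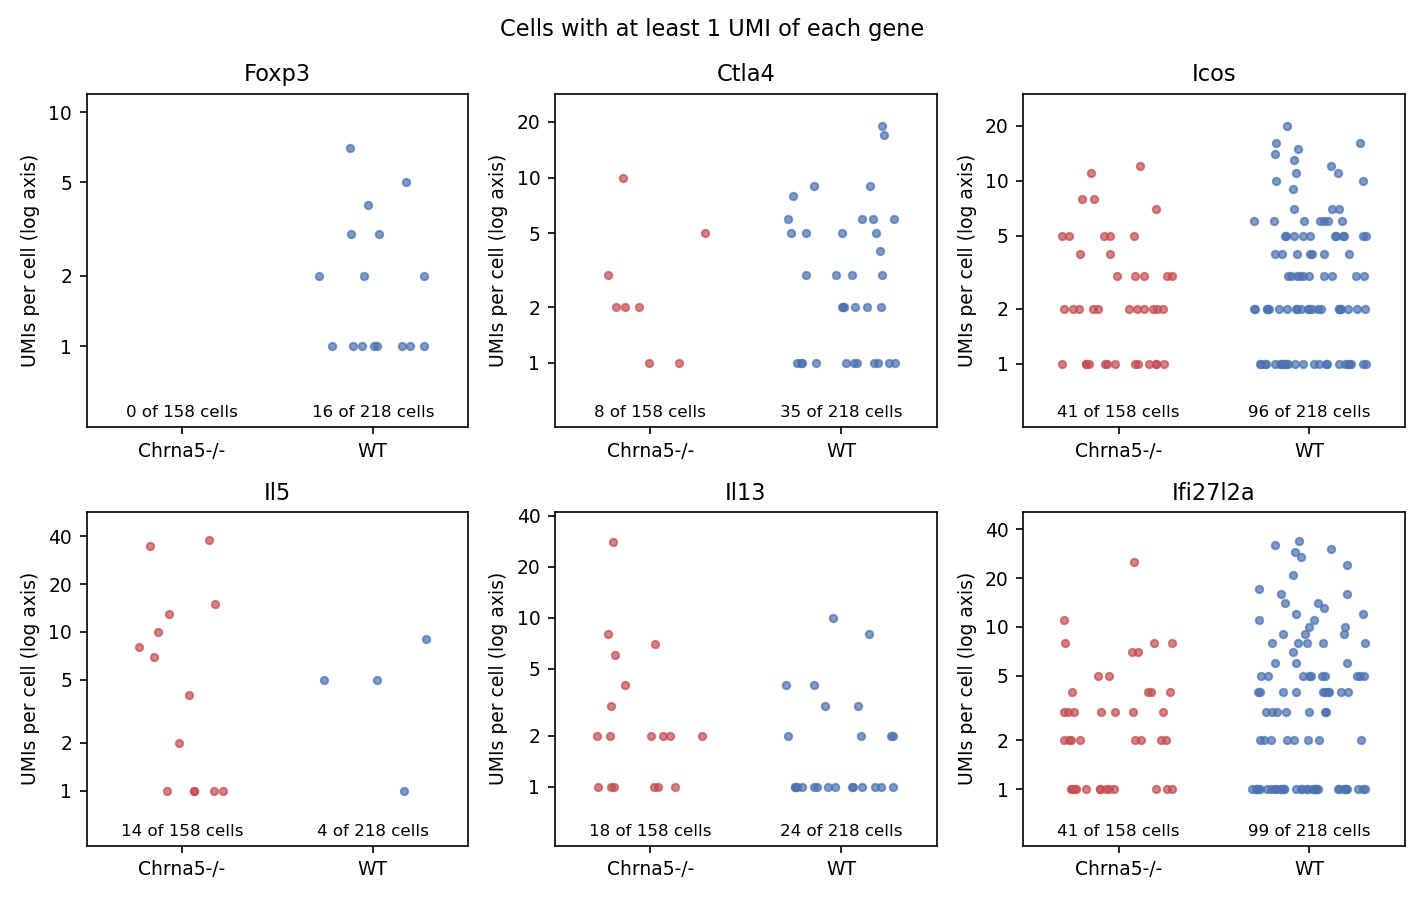
UMIs per cell (log axis) in every member cell with at least 1 UMI of Foxp3, Ctla4, Icos, Il5, Il13 or Ifi27l2a, Chrna5-/- left and WT right, each point 1 cell, with the number of such cells given under the points. Foxp3 has no Chrna5-/- point, and the highest Il5 cells, at 38 and 35 UMIs, are both Chrna5-/-.

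Of 12 measured cytotoxic and natural killer genes, Ifng and Gzma were higher in the Chrna5-/- members, Gzmc was lower and 9 were neither. Ifng, which encodes interferon gamma, had 132 UMIs in 29 Chrna5-/- cells (18.4%) and 69 UMIs in 22 WT cells (10.1%), a ratio of 2.60 (1.93 to 3.53). After thinning the shares were 16.9% and 5.70%, a difference of 11.2 percentage points (4.38 to 18.8). Every Ifng cell in both libraries held CD3, and Trac was in 19 of the 29 Chrna5-/- and 17 of the 22 WT cells. Ifng and Il5 were in no cell together.

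Ccl5, a chemokine of effector T cells, had 412 UMIs in 19 Chrna5-/- cells and 279 in 14 WT cells, a ratio of 2.01. The highest Chrna5-/- cell held 107 of these UMIs and the highest WT cell 124. Ccl4, a chemokine released on T cell activation, had 157 UMIs in Chrna5-/- and 9 in WT, but 85 of the 157 lay in 1 cell. Gzma, a granzyme, was in 4 Chrna5-/- cells with 125 UMIs and in 1 WT cell with 31 UMIs. All 4 Chrna5-/- Gzma cells held CD3, Trac, Ccl5 and Nkg7. Gzmc went the other way in the sum, with 149 UMIs in 13 Chrna5-/- cells and 372 UMIs in 10 WT cells (ratio 0.544). The 4 highest WT cells held 312 of the 372. Gzmb, at 104 and 102 CPM, was neither. The median log2 ratio of the 12 cytotoxic and natural killer genes was 0.48.

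Among 15 measured cytokines and chemokines, 6 were higher and 2 lower, with a median log2 ratio of 0.59. The higher ones were Il2 (ratio 2.72), the T cell growth factor, with Ccl1, Ccl3, Ccl4, Ccl5 and Cxcl2. For Ccl3, 1 Chrna5-/- cell held 20 of 26 UMIs and 1 WT cell held 8 of 10. Ccl1 was in 4 Chrna5-/- cells with 56 UMIs and in 1 WT cell with 2 UMIs. Cxcl2, a neutrophil attractant, had 590 UMIs in 17 Chrna5-/- cells and 280 UMIs in 22 WT cells (ratio 2.86). Of those Cxcl2 cells, 2 in Chrna5-/- and 8 in WT also held Cd207, a Langerhans cell gene, and 6 of the Chrna5-/- cells held Il5. Hbegf, a ligand of the EGF receptor, was lower (ratio 0.463). Tnf was lower in the sum (0.388), where 61 of the 91 WT UMIs lay in 1 cell, and its log2 ratio was 0.06 without the highest cell of each library.

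Il22, which acts on keratinocytes, had 0 UMIs in the Chrna5-/- members and 43 UMIs in 3 WT cells. The ratio came to 0.0948 with the floor of 3 counts, and the interval for 0 counts reached 0.122. Of 5 measured type 17 genes, Il22 and Ccr6 were lower and 0 higher. The rule removes cells with Cd163l1 or several Il17a UMIs, so the type 17 cells proper are not among the members.

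**Figure D4:**
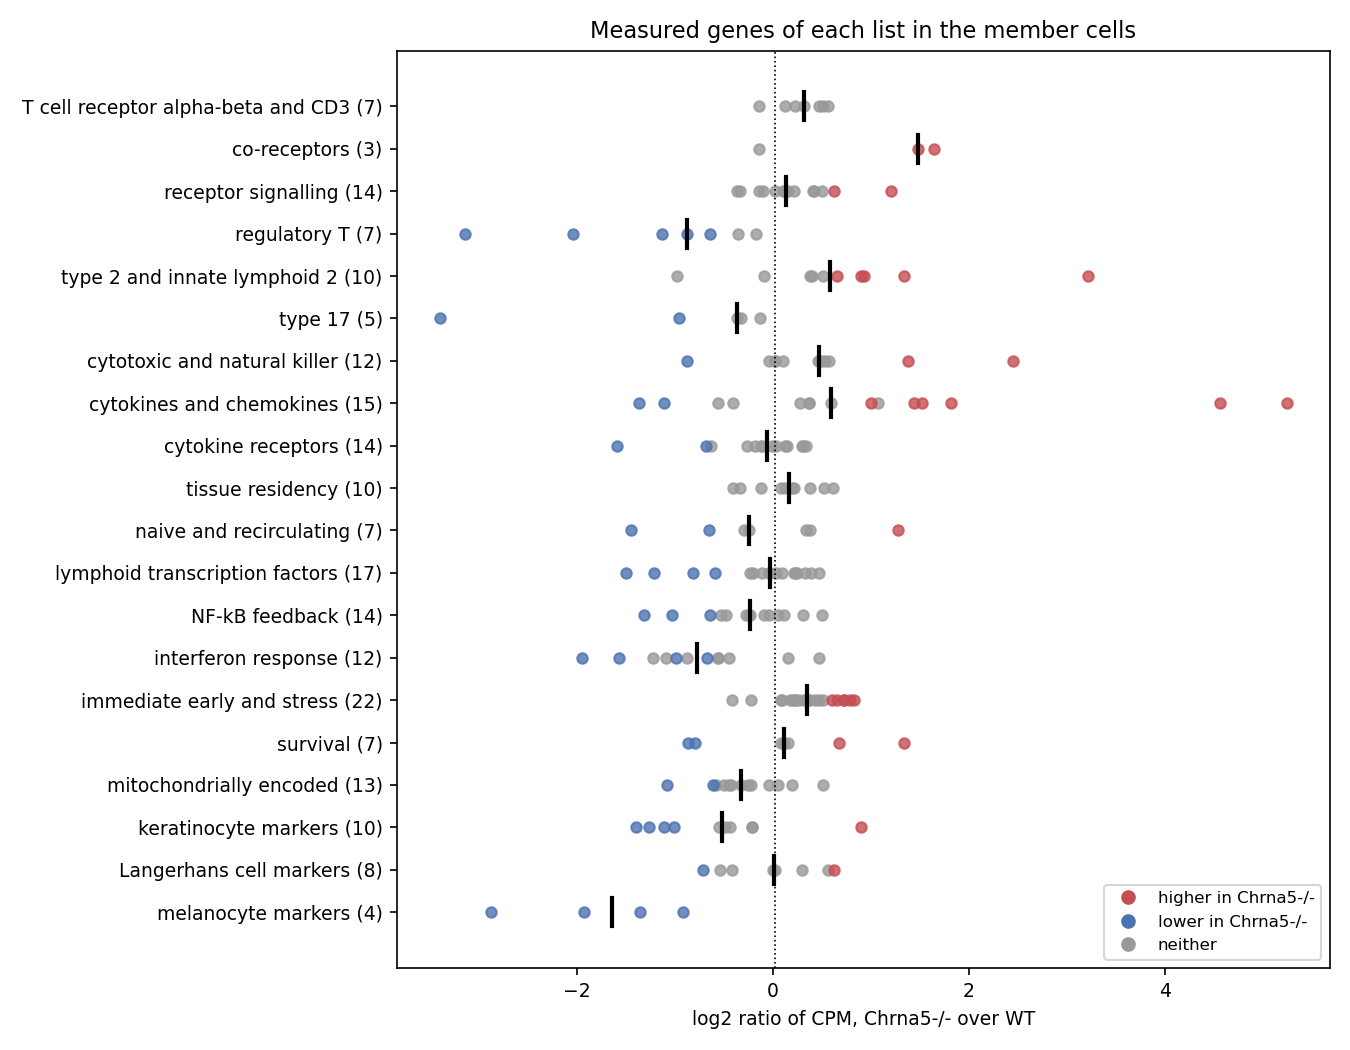
log2 ratio of CPM, Chrna5-/- over WT, for each measured gene of 20 lists (numbers in brackets), with the list median as a black bar and the median of all measured genes as a dotted line. Regulatory T, interferon response and melanocyte genes lie mostly left of the line, and type 2 genes and the cytokines and chemokines mostly right.

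Of 3 co-receptor genes, Cd4 and Cd8a were higher in the sum, less so with depth held equal. Cd4, the co-receptor of helper T cells, had 30 UMIs in 21 Chrna5-/- cells (13.3%) and 13 UMIs in 11 WT cells (5.05%), a ratio of 3.14 (1.59 to 6.55). After thinning the shares were 5.15% and 2.59%, with a difference of 2.56 percentage points whose interval of -1.69 to 7.86 includes 0. In the cells with Trac alone, Cd4 was in 15 of 54 Chrna5-/- and 10 of 78 WT cells. Cd8a (ratio 2.79) was higher and Cd8b1 (0.906) was neither, and the share of cells with Cd8a or Cd8b1 was 6.96% in Chrna5-/- and 8.26% in WT. After thinning the log2 ratio of Cd4 was 0.73, against 1.65 with all UMIs, that of Cd8a 0.31, against 1.48, and that of Cd8b1 -1.23, against -0.14. Of 14 measured receptor signalling genes, Cd5, which dampens receptor signals (ratio 2.31), and the kinase gene Fyn (1.54) were higher and 0 were lower.

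Survival genes were split. Bcl2, the anti-apoptotic protein, had 78 UMIs in 51 Chrna5-/- cells (32.3%) and 42 UMIs in 28 WT cells (12.8%), a ratio of 2.52 (1.71 to 3.76). The difference shrank with depth held equal, to 14.0% and 8.81% of thinned cells, and the Trdc cells held most Bcl2, with 30 of 60 Chrna5-/- and 19 of 62 WT cells. Gadd45b, a stress-induced gene, was higher too (1.60), while Bcl2l1 (0.579) and the pro-apoptotic Bcl2l11 (0.548) were lower. Without the mixed cells 1 of 7 measured survival genes was higher and 0 lower.

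Of 12 measured interferon response genes, 4 were lower in the Chrna5-/- members, 8 were neither and 0 were higher. Ifi27l2a had 150 UMIs in 41 Chrna5-/- cells (25.9%) and 605 UMIs in 99 WT cells (45.4%), a ratio of 0.337 (0.28 to 0.403). After thinning it was in 14.0% of Chrna5-/- and 33.7% of WT members, and keratinocytes moved the same way, with 3.40% and 18.6%. Over the other skin cells the ratio of Ifi27l2a was 0.166, so the direction was shared with cells outside the class. Bst2 (0.628), Ly6a (0.503) and Xaf1 (0.259) were lower as well. The median log2 ratio of the 12 was -0.78, and Ifi203, among the 8, lay on the other side at 0.47. Ifng itself was the higher in Chrna5-/-. Of 11 class I presentation genes, 1 was lower, Tapbp, which loads peptide (0.635), and 0 were higher.

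Immediate early and stress genes, which rise within minutes of stimulation or of tissue dissociation, were higher in 6 of 22 measured cases and lower in 0, with a median log2 ratio of 0.35. Zfp36, which destabilises cytokine messages, had 1826 CPM in Chrna5-/- and 1032 CPM in WT (ratio 1.77), Jun 2263 and 1313 CPM, and Fos 3610 and 2297 CPM (1.57). Atf3, Btg2 and Junb were higher as well. Over the other skin cells Fos had a ratio of 1.29.

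Of 17 measured lymphoid transcription factors, 4 were lower and 0 higher, with a median log2 ratio of -0.02. Irf4, which is induced by receptor signals, had 13 UMIs in Chrna5-/- and 50 in WT (ratio 0.353). Batf, its partner, had 14 and 44 (0.432), Stat3 102 and 244 (0.568) and Ikzf3 49 and 100 (0.666). In the cells with Trdv4 or Tcrg-V5 the ratios of Irf4, Batf and Stat3 were 0.554, 0.528 and 0.812. Of 14 genes of NF-kB feedback, Nfkb2 (0.401), Icam1 and Bcl2a1d (0.489) were lower and 0 higher. Among 7 genes of SOCS and MAP kinase feedback, Socs3 was higher (2.19) and the phosphatase gene Dusp4 lower (0.334). Dusp4 was also lower over the other skin cells, at 0.244.

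Genes of residency and trafficking seldom passed the fold. None of 10 measured tissue residency genes was higher or lower. Itgae, the integrin that binds epithelial cadherin, had 240 CPM in Chrna5-/- and 260 CPM in WT. Of 7 measured genes of naive and recirculating cells, Ccr7 (ratio 0.366), the lymph node homing receptor, and Satb1 (0.635) were lower and Bach2 (2.42) higher. Of 6 measured chemokine receptors Ccr2 (1.64) and Cx3cr1 (2.24) were higher, and of 14 cytokine receptors Il4ra (0.622) and Il1r2 (0.332) were lower. In WT, 45 of the 94 Il1r2 UMIs lay in 1 cell. Il7r, the interleukin 7 receptor that the rule uses, was in 33.5% of Chrna5-/- and 41.7% of WT members. Rora, a nuclear receptor of innate lymphoid and type 17 cells that the rule does not use, had 670 CPM in Chrna5-/- and 682 CPM in WT. It was in 43.7% and 50.5% of the members, and after thinning in 28.7% and 36.8%, while 1478 of 5891 Chrna5-/- keratinocytes and 1478 of 5908 WT keratinocytes held it.

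Cell cycle genes had a median log2 ratio of 0.08, with Cdk1 and Ube2c higher among 18 measured. Of the 13 mitochondrially encoded genes, mt-Nd3 and mt-Co3 were lower and 0 higher, with a median of -0.33. Of 12 cholinergic genes 0 reached 20 UMIs in the members. Chrna5 itself had 0 UMIs in both libraries' members, which allows shares of cells with a UMI of up to 1.90% in Chrna5-/- and 1.38% in WT and sets no limit on cells that express it. Over all filtered barcodes it had 3 UMIs in Chrna5-/- and 13 in WT. With the deleted part unknown, UMIs of Chrna5 do not check the genotype.

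Among the genes named by size alone, some had ratios over the other skin cells that were nearer 1 or on its other side. Klra7, a receptor of natural killer and T cell subsets, had 35 UMIs in 12 Chrna5-/- cells and 4 UMIs in 2 WT cells (ratio 11.9). Klra1 had 33 UMIs in 9 cells and 10 UMIs in 7 cells (4.48). Over the other skin cells Klra7 had 1 UMI in Chrna5-/- and 17 in WT (0.0653), and Klra1 had 1 and 2. The Klra genes are near-identical relatives, so reads can be split between them. Itga4, an integrin chain for entry into tissue, had 44 UMIs in 20 Chrna5-/- cells and 9 UMIs in 5 WT cells (6.64), against a ratio of 1.06 over the other skin cells. Gimap1, a GTPase gene of lymphocytes, had 44 and 17 UMIs (3.52), against 1.26 there. Hilpda, a lipid droplet gene, had 272 and 134 UMIs (2.76), against 0.747 there, and Slc5a3, a myo-inositol transporter, had 57 and 21 (3.69), against 0.934. Pias4, a SUMO ligase gene, was the lower in the members, with 3 UMIs in 3 Chrna5-/- cells and 28 UMIs in 20 WT cells (0.146), against 0.935 there. Igfbp7 (9.96), Flrt3 (3.48) and Rasl11a (4.08) completed the higher genes, against 1.03, 0.751 and 1.21 there. The log2 ratio of Rasl11a was 0.09 after thinning, against 2.03 with all UMIs, and that of Flrt3 was 0.99 with the mean over cells and 1.03 without the mixed cells, against 1.80.

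Ptk2, Mid1 and Defb6 differed in the same direction over the other skin cells. Ptk2, which encodes focal adhesion kinase, had 26 UMIs in 21 Chrna5-/- cells and 5 UMIs in 5 WT cells (7.07), and a ratio of 2.68 over the other skin cells. Mid1, an X-linked ubiquitin ligase gene, had 1 UMI in Chrna5-/- and 23 UMIs in 21 WT cells, a ratio of 0.0591 (0.00143 to 0.364), and 0.119 over the other skin cells. Defb6, a beta-defensin of skin, had 6 and 70 UMIs (0.116), and 0.314 there. Lypd3, Dmkn and Il1rn, all genes of keratinocytes, had ratios of 0.233, 0.353 and 0.16 in the members, against 0.72, 1.04 and 0.875 over the other skin cells. Arc and Ccdc71l had 0.243 each in the members, against 0.655 and 0.639. Without the mixed cells the log2 ratios of Dmkn, Ccdc71l and Arc turned to 0.39, 0.52 and 1.98.

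Genes of other cell types were present in the members and differed between the libraries. The 10 keratinocyte markers summed to 9955 CPM in Chrna5-/- and 16092 CPM in WT, with 4 lower and 1 higher. They were unevenly spread: 1 Chrna5-/- cell held 282 of 563 Krt1 UMIs and 1 WT cell held 1002 of 2012. Without the mixed cells the sums were 2569 and 2527 CPM. The 8 Langerhans cell markers summed to 3175 and 2922 CPM, or 153 and 287 CPM without the mixed cells. The 4 melanocyte markers (Pmel, Dct, Tyrp1 and Mlana) were all lower, at 134 CPM in Chrna5-/- and 340 CPM in WT, and 199 and 512 CPM without the mixed cells. Mlana was also lower over the other skin cells (0.162). Fibroblast markers summed to 119 and 38.2 CPM, mast cell markers to 33.5 and 6.17 CPM, macrophage markers to 50.3 and 77.7 CPM, B cell markers to 65.3 and 64.1 CPM and neutrophil markers to 0 and 3.70 CPM. The part of these other cells in the summed levels was not tested, and the levels without the mixed cells are given instead.

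Clustered together, the members fell into 5 groups of 126, 89, 108, 39 and 14 cells. A cluster of 126 cells was dendritic epidermal T-like, with Trdc in 106 cells, CD3 in 125 and 4 markers over 1.5-fold (Trdc, Xcl1, Fcer1g and Nkg7), at a median of 1844.5 UMIs. None of its markers was among its 10 leading genes. A cluster of 89 cells led by Ccl5 and Ifng stayed unnamed, with Trac in 59. A cluster of 108 cells, led by Hlf and Icos, had regulatory T genes (Ctla4, Il2ra, Ikzf2, Tnfrsf4 and Tnfrsf18) at a higher level, but Foxp3 in only 11 cells, and was left unnamed. A cluster of 39 cells, at a median of 14267 UMIs, held Langerhans cell and keratinocyte genes. The smallest, of 14 cells, was led by Il5 and matched 6 markers of group 2 innate lymphoid cells, yet 12 of its cells held CD3 and 10 held Trac, so it was given no such name. It came mostly from 1 library, with 12 Chrna5-/- and 2 WT cells, and may be that library and not a type. At a finer resolution there were 8 clusters, among them 1 of 29 cells with Foxp3 as its leading gene. That cluster matched 6 regulatory T markers and held 7 Chrna5-/- and 22 WT cells. Foxp3 was in 11 of the 29, all of them WT.

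Set beside the other lymphoid cells of the same skin, the members held more Trac and Ifng than either other group. They held more Cd4 than the cells with Trdv4 or Tcrg-V5, but less Il7r and Rora than the type 17 cells. These cells were split by genes of the same counts, so the values are a description. Trac stood at 240 CPM in Chrna5-/- and 264 CPM in WT members, against 65.7 and 36.2 CPM in cells with Trdv4 or Tcrg-V5 and 67.4 and 181 CPM in the 6 Chrna5-/- and 29 WT type 17 cells. Il7r stood at 271 and 326 CPM in the members, against 0.738 and 14.7 CPM there, and Rora at 670 and 682 CPM, against 65.7 and 83.6 CPM. The type 17 cells (Cd163l1 or at least 2 Il17a UMIs) held the most of both, with Il7r at 877 and 483 CPM and Rora at 944 and 1339 CPM, and also more Icos, at 1012 and 906 CPM against 216 and 494 CPM in the members. Il5 and Foxp3 had 0 UMIs in the Trdv4 or Tcrg-V5 cells of both libraries. Xcl1, a chemokine of gamma-delta and natural killer cells, ran the other way, at 305 and 300 CPM in the members and 1884 and 1006 CPM in the Trdv4 or Tcrg-V5 cells.

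**Figure D5:**
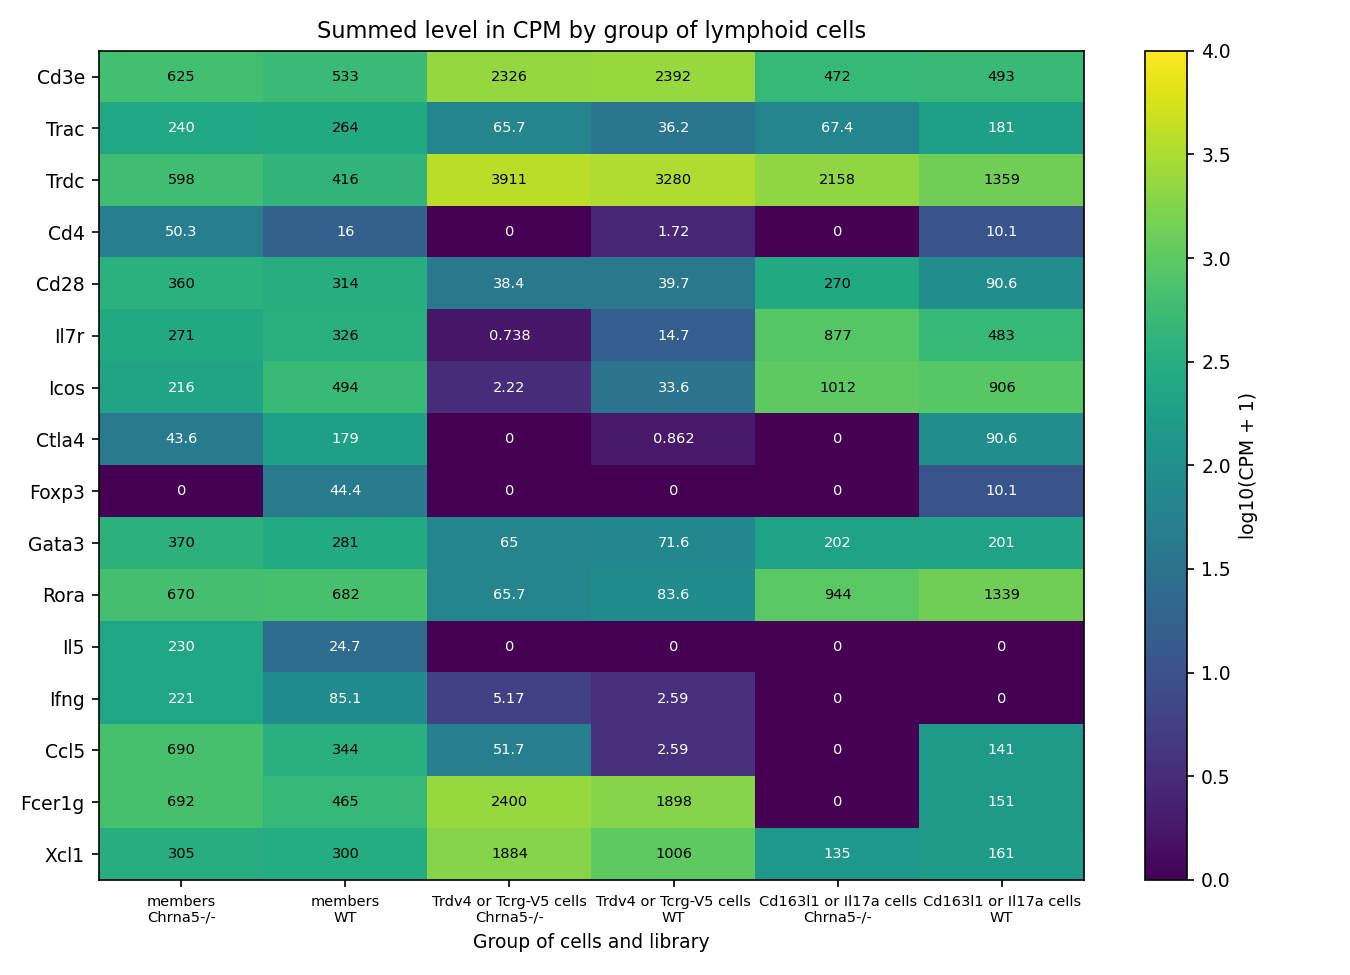
Summed level in CPM (numbers; colour, log10(CPM + 1)) of 16 genes in the members, in cells with a Trdv4 or Tcrg-V5 UMI and in cells with Cd163l1 or at least 2 Il17a UMIs, with Chrna5-/- left of WT in each pair, to be compared within a row. The last pair holds 6 Chrna5-/- and 29 WT cells. Trac and Ifng were highest in the members, and Cd4 in the last pair rests on 0 Chrna5-/- UMIs and 1 WT UMI.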

How the data were processed

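The deposited matrices held whole-number UMI counts per gene and barcode with no normalization, per the file headers. Cell Ranger 3.0.2, Seurat 3.0 and the build mm10 are named with no role, per the submitters' processing notes, whereas the file headers give Cell Ranger software version 3.1.0. No source used here states the filters before deposit. The libraries held 9696 barcodes in Chrna5-/- and 10741 in WT, of which 9308 and 10160 passed the quality limits.

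Counts were summed over member cells per library and given per 1000000 UMIs of the class (CPM). Ratios have conditional binomial intervals, shares Clopper-Pearson intervals and differences of shares Newcombe intervals, all 95%, for counting error only (Python 3.11.15 with scipy 1.17.1). A sum of 0 was set to 3 counts per class and library. Cells were thinned by drawing 1000 UMIs without replacement, leaving out 22 Chrna5-/- and 25 WT members that were shallower. Keratinocytes for background shares were the filtered cells with at least 1% of UMIs from Krt5 and Krt14 and no Ptprc UMI. Doublets were scored with Scrublet (scanpy 1.11.5). Its own thresholds marked 0 cells in Chrna5-/- and 201 in WT, so a common score of 0.25 was used, and cells above it were kept except in an alternative. TMM factors came from edgeR 4.0.16. Clusters used 1500 variable genes, 20 components, 15 neighbours and the Leiden method (igraph 0.11.9) at resolution 0.5. The calculation was tested on simulated data.

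The members and the 32 gene lists were chosen with earlier results of these data known. Named genes were, in each direction, the 12 past the fold with the interval bound farthest from 1, found in at least 10 cells with at most 25% of UMIs in 1 cell, plus the list members past the fold, the rule's genes and Chrna5. Mitochondrial, ribosomal, predicted and haemoglobin genes were left out of the first part. Gene positions come from GENCODE for mm10, counted from 1. Alternatives changed scaling, filters, depth, doublets, free RNA and the cells included.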

Additional observations from a re-analysis of the deposited data

How the results depend on the processing

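No paired analysis was possible because each genotype had 1 library. The share of the class in Chrna5-/- stayed below that in WT under every alternative tried, with ratios from 0.77 (at least 1000 UMIs per barcode) to 0.841 (thinned cells, or a mitochondrial limit of 10%) beside 0.791. The counts of higher and lower genes, 374 and 355, became 573 and 702 with the mean over cells in place of the sum, 100 and 114 with members thinned to 1000 UMIs, where 2532 genes were measured, 221 and 232 with at least 50 UMIs per gene, and 240 and 191 without mixed cells, an alternative chosen after seeing the data. Of the calls with all cells, 147 higher and 104 lower genes were shared by the last. Of 74 named genes, 37 stayed within the counting interval of their log2 ratio after thinning and 59 without mixed cells. Among genes past the fold, the log2 ratio changed sign after thinning in Il1rn (0.50), Arc (0.50) and Ccr6 (0.090), without mixed cells in Dmkn (0.39), Ccdc71l (0.52), Arc (1.98) and Tnf (0.14), and for Tnf also in cells with a CD3 UMI (0.21) and without the highest cell (0.059). Of genes that were neither higher nor lower, Trac (0.28), Il2ra (0.15) and Il1rl1 (-0.42) changed sign after thinning, against -0.14, -0.17 and 0.38. The cause was not tested. With at least 2 UMIs asked for, the difference in Foxp3 share was -3.67 percentage points, against -7.34. Clustering gave 8 groups at resolution 1, against 5. The 158 and 218 members, with medians of 2697 and 2596 UMIs, limit detection: 0 of 158 Chrna5-/- cells with a UMI allows a share of up to 1.90% of cells with a UMI, and cells that express a gene at a low level can have none.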

Other observations

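Some cells met the common lymphoid limits but carried both a Trdv4 or Tcrg-V5 UMI and a type 17 gene. They numbered 26 in Chrna5-/- and 53 in WT. These cells were left out of the members, the Trdv4 or Tcrg-V5 cells and the type 17 cells compared above. They are counted in the 542 Chrna5-/- and 612 WT cells that met those limits. They made up 4.80% and 8.66% of the cells of those limits.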
